A study of Mus musculus with 9 samples.

Results

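The dual-specificity MAP kinase phosphatases described here are the products of 9 mouse genes, Dusp1, Dusp2, Dusp4, Dusp5, Dusp6, Dusp7, Dusp10, Dusp14 and Dusp16. They were found on the array as every non-control probe whose RefSeq accession carries one of these symbols, which gave 10 probes among 39429, and they are 9 of 32451 genes with a probe. All 10 probes were well above background on all 9 arrays and none was saturated, so all 9 genes passed the filter on dim probes and were tested with 19071 genes in all.

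MAP kinases (ERK, JNK and p38) are switched on when a threonine and a neighbouring tyrosine in their activation loop are both phosphorylated, and dual-specificity phosphatases switch them off by removing both phosphates. Many of these phosphatase genes are themselves induced by the kinases they oppose, which makes them negative feedback regulators, and in T cells they limit the response to the antigen receptor. PMA mimics diacylglycerol and activates protein kinase C and the Ras exchange factors upstream of ERK, and ionomycin raises intracellular calcium.

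The 3 populations were CD4+ T cells of BALB/c mice (spleen and lymph node), with 3 arrays for each. No transgene or deleted gene is named in the labels. The cells were enriched for CD4 with magnetic beads, all of them, naive cells included, were stimulated for 3 h with PMA at 10 ng/ml and ionomycin at 500 ng/ml, and secreted IL-17A and interferon gamma were captured at the cell surface before sorting on CD3 and CD4. Naive cells were CD45RB high. Th1 cells were CD45RB low, positive for interferon gamma and negative for IL-17A, and Th17 cells were CD45RB low, negative for interferon gamma and positive for IL-17A. There was no unstimulated population, so every value below is a level in stimulated cells. The labels do not tie the arrays to animals or give the animals' age, and the p-values measure the spread between arrays, which may be technical. RNA came from bulk populations, in which fewer cells of a type and less RNA per cell cannot be told apart.

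A level is the log2 of the processed signal of a probe minus the log2 of the 75th percentile of its array, so 0 is the signal of the 75th percentile and a difference of 1 between arrays is a 2-fold difference in signal. Levels of different probes are not compared. A gene was called at an adjusted p under 0.05. By their barcodes the arrays came from 3 slides. Slide 1 carried all naive samples plus the first Th1 sample, slide 2 the remaining Th1 samples plus the first and second Th17 samples, and slide 3 the last Th17 sample. Th1 cells could thus be set against naive cells within slide 1 and against Th17 cells within slide 2. Naive and Th17 cells never shared a slide. A fit with the slide as a block has a term for each slide and draws on the same contrasts. Its Th1 change against naive therefore equals that within slide 1, which rests on 1 Th1 array. Its Th17 change against Th1 equals that within slide 2. Only the estimate of the spread differs, so these settings are not independent checks.

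The sort genes followed the gates. Ifng had a mean level of 9.13 in Th1 cells against 1.42 in naive and 1.72 in Th17 cells. Il17a had one of 9.24 in Th17 cells against -3.02 in naive and -0.76 in Th1 cells. Within these groups Il17a varied, at -0.24, -4.68 and -4.16 on the naive and 0.55, -0.42 and -2.4 on the Th1 arrays. Naive replicate 1 lay within the range of the Th1 arrays. All 6 T cell markers, Cd4 among them, exceeded background on every array. They were not even across naive, Th1 and Th17 cells. In that order the means were 1.43, 4.27 and 3.48 for Cd3g and 2.93, 5.13 and 4.55 for Cd3e. Cd4 (2.89, 3.77 and 3.25), Cd2 (7.04, 7.7 and 7.27), Cd3d (4.96, 5.29 and 4.91) and Lck (6.94, 6.45 and 6.77) differed less. Of the other lists, the B cell markers Cd79b, Ms4a1 and Pax5, both NK cell markers (Ncr1, Klrb1c) and Cd8a were above background on none, and Cd79a was on 6 of 9. The level of the summed CD8 markers was -0.80 to -0.54 on naive, -3.96 to -3.74 on Th1 and -4.19 to -3.72 on Th17 arrays, with Cd8b1 above background on all 9. The summed myeloid markers (3 of 4 above background throughout, Lyz2 on 2 of 9) lay at 4.09 to 4.11, 4.69 to 5.0 and 4.33 to 4.94 in the same order, with Cd14 at -4.45 to -3.90, -3.84 to -3.06 and -1.70 to -0.30. Csf1r of the same list ran the other way, with means of 2.15, 1.43 and 1.37, and Itgam had means of 3.66, 4.73 and 4.45. The summed erythroid markers (Hba-a1 on all arrays, Alas2 on 1) lay at -4.62 to -3.25, -4.64 to 0.38 and -0.18 to 1.47. Siglech, a plasmacytoid dendritic cell gene, had a mean of 7.38, 7.57 and 7.63. The part of these other genes in the results below was not tested.

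The 9 phosphatase genes did not move as one. Dusp4 and Dusp14 were many times higher in both effector populations than in naive cells. Dusp1 and Dusp6 were higher in Th1 cells than in naive cells and lower in Th17 than in Th1 cells. Dusp5 and Dusp16 were lower in both effector populations, and Dusp2, Dusp7 and Dusp10 were called lower in Th17 cells against naive cells. In the pair of comparisons with naive cells the same 3 naive arrays served as the reference, so they are not independent of each other.

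**Figure D1:**
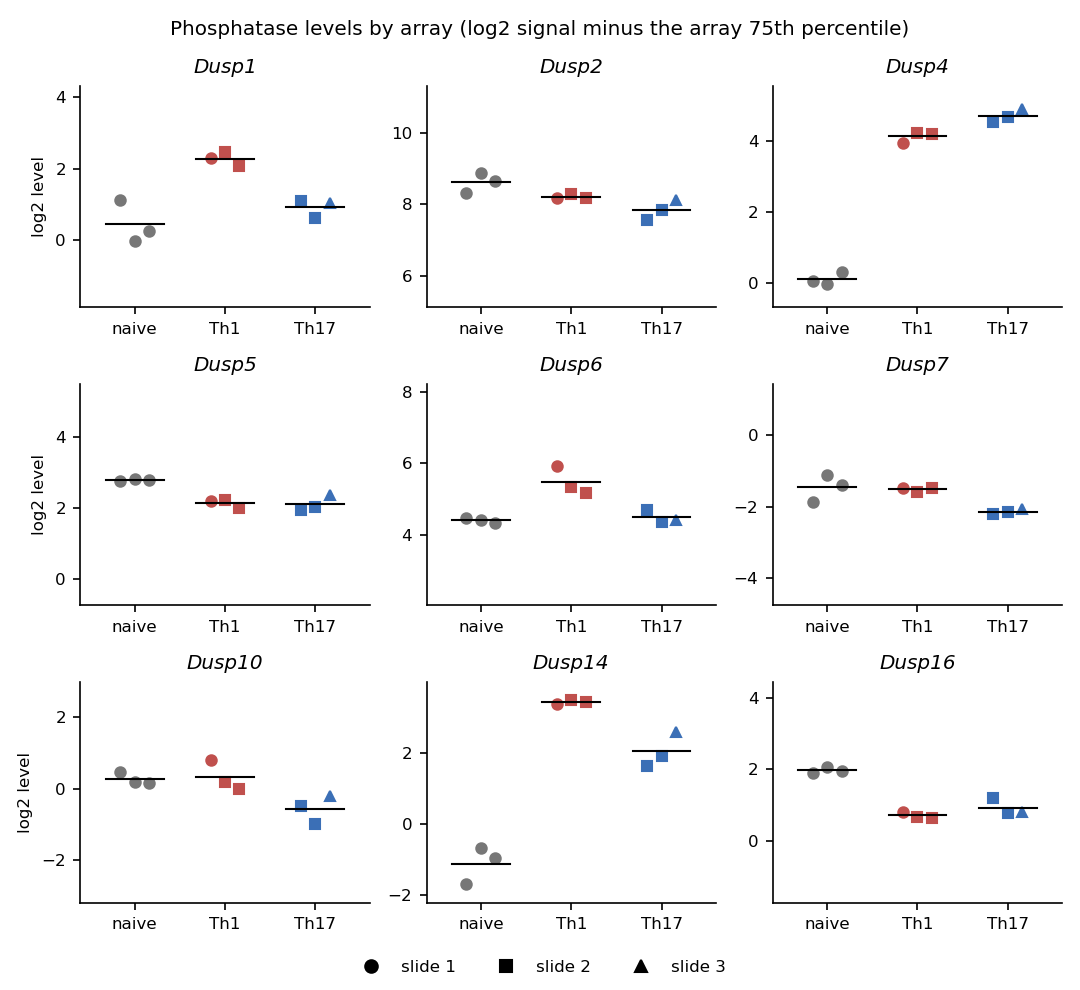
Level of each of the 9 phosphatase genes on each array (vertical axis: log2 processed signal minus the array's 75th percentile; every panel spans the same number of log2 units). Points are single arrays, shaped by slide, and lines are group means of 3 arrays. Dusp4 rises from a mean of 0.12 in naive to 4.12 in Th1 and 4.69 in Th17 cells, and Dusp14 from -1.11 to 3.42 and 2.04, while the other 7 genes move less.

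The promoters of 4 genes that moved in pairs are given below as the 250 bases before the annotated transcription start, 5′ to 3′ on the strand of the gene, from RefSeq with build GRCm38.p6. Dusp1 and Dusp6 are shown because both were highest in Th1 cells, and Dusp5 and Dusp16 because both were lower in both effector populations. Dusp14 was also highest in Th1 cells but is not shown, nor are Dusp2, Dusp7 and Dusp10, all lowest in Th17 cells. Of the 9 genes, 8 had an entry in the promoter table, and Dusp4 had none. Both strands were searched for 9 motifs: the cAMP response element TGACGTCA, the AP-1 site TGANTCA, the EGR site GCGNGGGCG, the CArG box bound by serum response factor, the ETS site CCGGAAGT, the NFAT-like site TGGAAA, the E box CACGTG, the GC box GGGGCGGGG and the TATA box TATAAA. Capitals mark matches to the cAMP response element, the CArG box or the EGR site.
Dusp1, chr17:26508473-26508722, minus strand: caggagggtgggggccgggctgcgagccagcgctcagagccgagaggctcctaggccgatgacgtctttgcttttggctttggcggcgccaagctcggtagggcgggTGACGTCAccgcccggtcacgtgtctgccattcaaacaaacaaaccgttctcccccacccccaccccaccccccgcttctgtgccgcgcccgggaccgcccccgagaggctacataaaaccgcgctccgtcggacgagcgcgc
Dusp6, chr10:99262981-99263230, plus strand: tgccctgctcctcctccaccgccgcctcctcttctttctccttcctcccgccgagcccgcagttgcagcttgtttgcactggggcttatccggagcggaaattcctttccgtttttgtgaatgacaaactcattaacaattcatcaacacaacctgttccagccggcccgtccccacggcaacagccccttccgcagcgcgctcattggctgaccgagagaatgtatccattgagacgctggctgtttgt
Dusp5, chr19:53528895-53529144, plus strand: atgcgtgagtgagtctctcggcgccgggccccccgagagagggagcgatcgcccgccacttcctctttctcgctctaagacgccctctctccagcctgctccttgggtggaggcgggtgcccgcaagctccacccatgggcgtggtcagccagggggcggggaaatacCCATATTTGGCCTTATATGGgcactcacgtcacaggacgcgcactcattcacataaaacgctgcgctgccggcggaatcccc
Dusp16, chr6:134792629-134792878, minus strand: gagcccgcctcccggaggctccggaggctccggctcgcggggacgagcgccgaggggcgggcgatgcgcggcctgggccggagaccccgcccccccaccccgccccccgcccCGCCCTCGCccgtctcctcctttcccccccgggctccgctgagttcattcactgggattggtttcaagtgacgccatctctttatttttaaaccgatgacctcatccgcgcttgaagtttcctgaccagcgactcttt

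The cAMP response element occurred in 1 of the 8 promoters, that of Dusp1, where its first base lay 143 bases before the start, and in 1.55% of 32851 promoters of the same length. The CArG box occurred in 1, that of Dusp5, as 2 abutting copies that begin 82 and 72 bases before the start, and in 1.47% of all promoters. The EGR site occurred in Dusp16 and Dusp2, against 4.7% of all promoters. The E box occurred in Dusp1 and Dusp2 (6.02% of all) and the GC box in Dusp2, Dusp5 and Dusp16 (10.4% of all). In Dusp16 the EGR site begins on the last base of a GC box. The AP-1 site (6.75% of all), the ETS site (2.88%), the NFAT-like site (18.6%) and the TATA box (12.4%) had no match in the 8. Of the 8, the promoters of Dusp6, Dusp7, Dusp10 and Dusp14 held none of the 9 motifs. A match is a stretch of letters and was not measured as a bound site.

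Dusp4, Dusp1, Dusp2 and Dusp5 encode the inducible phosphatases of the nucleus. Dusp4 acts on ERK and JNK. Its level was 0.06, -0.02 and 0.31 on the naive arrays, 3.95, 4.22 and 4.19 on the Th1 arrays and 4.54, 4.66 and 4.89 on the Th17 arrays. The 3 groups did not overlap, with naive cells lowest and Th17 cells highest. Dusp4 was 16-fold higher in Th1 than in naive cells, a log2 change of 4.0 ± 0.14 (SE; adjusted p = 4e-07), and 23.9-fold higher in Th17 than in naive cells, a change of 4.58 ± 0.14 (adjusted p = 3.26e-07). Of the 19071 genes tested, 265 rose more than Dusp4 in Th1 cells and 184 rose more in Th17 cells. Both increases were called with the slide as a block, at 3.83 (adjusted p = 6.48e-05) and 4.22 (adjusted p = 0.000251), and within slide 1 the Th1 change was 3.83 (adjusted p = 0.00196).

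Between the effector populations Dusp4 was 1.49-fold higher in Th17 cells, a log2 change of 0.58 ± 0.14 with a 95% confidence interval of 0.26 to 0.89 (adjusted p = 0.0261). That call was lost when 1 of 5 arrays was left out: Th1 replicate 1 (0.49, adjusted p = 0.0789), 2 (0.63, adjusted p = 0.055) or 3 (0.61, adjusted p = 0.0538), or Th17 replicate 2 (0.59, adjusted p = 0.0595) or 3 (0.48, adjusted p = 0.0662). It was also lost with the slide as a block (0.39, adjusted p = 0.135) and within slide 2 (0.39, adjusted p = 0.147), with quantile normalization (0.47, adjusted p = 0.0624), with no filter on dim probes (adjusted p = 0.0694) and in a fit of these 2 groups alone (adjusted p = 0.0507).

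Dusp1 is an immediate early gene whose product prefers p38 and JNK over ERK. It stood at 1.12, -0.03 and 0.24 in naive cells, at 2.29, 2.46 and 2.07 in Th1 cells and at 1.09, 0.61 and 1.04 in Th17 cells. All Th1 arrays lay above all others, while the naive and Th17 arrays overlapped because naive replicate 1 was the highest of those 6. The signal was 3.54-fold higher in Th1 than in naive cells (log2 change 1.83 ± 0.29, adjusted p = 0.000904) and 2.56-fold lower in Th17 than in Th1 cells (log2 change -1.36 ± 0.29, adjusted p = 0.0145). Th17 and naive cells differed by 0.47, with an interval of -0.19 to 1.12 that holds 0 as well as a more than 2-fold increase (adjusted p = 0.198).

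These calls for Dusp1 leaned on single arrays and slides in places. Without naive replicate 1 the difference between Th17 and naive cells was 0.80 and passed (adjusted p = 0.0113). Without Th1 replicate 2 the difference between Th17 and Th1 cells was -1.27 and did not (adjusted p = 0.0556). Within slide 1 the Th1 change against naive was 1.84 (adjusted p = 0.0517), where the 1 Th1 array is assumed to vary like the naive ones, and with the slide as a block it was also 1.84 (adjusted p = 0.0203). The Th17 change against Th1 was -1.42 within slide 2 (adjusted p = 0.0452) and -1.42 with the slide as a block (adjusted p = 0.0738).

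Dusp2, first known as a phosphatase of activated lymphocytes, acts on ERK in the nucleus. Its level was 8.31, 8.87 and 8.65 in naive, 8.16, 8.29 and 8.17 in Th1 and 7.56, 7.84 and 8.12 in Th17 cells. The 3 groups did not overlap, in the order naive, Th1, Th17, but only the outer pair differed past the threshold. Th17 cells were 1.71-fold lower than naive cells (log2 change -0.77 ± 0.18, adjusted p = 0.0068). The Th1 change against naive was -0.40, with an interval of -0.82 to 0.01 (adjusted p = 0.0909), and the Th17 change against Th1 was -0.37, with an interval of -0.78 to 0.05 (adjusted p = 0.211).

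The size of the Dusp2 differences depended on the scaling. With quantile normalization the Th17 change against naive was -0.43 (adjusted p = 0.041) and the Th1 change was 0.06, of the opposite sign (adjusted p = 0.779). Without naive replicate 1, the lowest naive array, the Th1 change of -0.55 passed (adjusted p = 0.0328). With the slide as a block the Th17 change against naive was -0.98 and did not pass (adjusted p = 0.0618).

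Dusp5 is the nuclear phosphatase selective for ERK. Naive cells stood at 2.76, 2.82 and 2.77, Th1 cells at 2.20, 2.23 and 2.0 and Th17 cells at 1.94, 2.02 and 2.37. All 3 naive arrays lay above all effector arrays, and the Th1 and Th17 arrays overlapped. Dusp5 was 1.56-fold lower in Th1 cells (log2 change -0.64 ± 0.13, adjusted p = 0.0034) and 1.59-fold lower in Th17 cells (log2 change -0.67 ± 0.13, adjusted p = 0.00262) than in naive cells. Both decreases passed with each array left out in turn, with the slide as a block (-0.59, adjusted p = 0.0157 and -0.72, adjusted p = 0.0289), and for Th1 cells within slide 1 (-0.59, adjusted p = 0.0335). Between Th17 and Th1 cells the interval ran from -0.33 to 0.27 (adjusted p = 0.899), which leaves out a difference as large as either one from naive cells.

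Dusp6 and Dusp7 encode the cytoplasmic phosphatases selective for ERK. Dusp6 had levels of 4.47, 4.42 and 4.34 in naive, 5.92, 5.33 and 5.17 in Th1 and 4.71, 4.36 and 4.42 in Th17 cells. All Th1 arrays were above all others, Th1 replicate 1 being the highest, and the naive and Th17 arrays overlapped. The signal was 2.09-fold higher in Th1 than in naive cells (log2 change 1.06 ± 0.19, adjusted p = 0.00197) and 1.97-fold lower in Th17 than in Th1 cells (log2 change -0.98 ± 0.19, adjusted p = 0.0113). Th17 and naive cells differed by 0.09, with an interval of -0.36 to 0.53 (adjusted p = 0.722).

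The Th1 replicate of Dusp6 that shared slide 1 with the naive arrays was higher than both on slide 2. Accordingly the Th1 change against naive was 1.51 within slide 1 (adjusted p = 0.00508) and with the slide as a block (adjusted p = 0.00127), and the Th17 change against Th1 was -0.71 within slide 2, which did not pass (adjusted p = 0.093), and -0.71 with the block, which did (adjusted p = 0.0294). With the block, in which Th17 and naive cells are joined only through Th1 cells, Dusp6 was also called higher in Th17 than in naive cells (0.80, adjusted p = 0.0426).

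Dusp7 was at -1.88, -1.11 and -1.41 in naive, at -1.49, -1.59 and -1.48 in Th1 and at -2.21, -2.16 and -2.07 in Th17 cells. All Th17 arrays lay below all others, and the naive arrays spread around the Th1 arrays. The log2 change was -0.68 ± 0.18 in Th17 against naive cells (1.6-fold lower, adjusted p = 0.0115) and -0.63 ± 0.18 against Th1 cells (1.55-fold lower, adjusted p = 0.0466), while Th1 and naive cells differed by -0.05 with an interval of -0.46 to 0.36 (adjusted p = 0.832). The call against naive cells was kept with each array left out and lost with the slide as a block (-0.68, adjusted p = 0.22).

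The call of Dusp7 against Th1 cells was close to the threshold. It was lost without naive replicate 3 (-0.63, adjusted p = 0.0733), without Th1 replicate 1 (-0.62, adjusted p = 0.11), 2 (-0.67, adjusted p = 0.0995) or 3 (-0.61, adjusted p = 0.112), and without Th17 replicate 1 (-0.60, adjusted p = 0.113), 2 (-0.63, adjusted p = 0.103) or 3 (-0.67, adjusted p = 0.0779). Within slide 2 the change was -0.66 (adjusted p = 0.0527) and with the slide as a block -0.66 (adjusted p = 0.147). With background correction by normexp, refitted without outlier spots, it was -0.35 (adjusted p = 0.182).

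Dusp10 and Dusp16 encode the phosphatases directed at JNK and p38. Dusp10 had levels of 0.47, 0.19 and 0.16 in naive, 0.80, 0.17 and -0.01 in Th1 and -0.48, -1.0 and -0.20 in Th17 cells. All Th17 arrays lay below all others, and the naive and Th1 arrays overlapped. The Th17 change was -0.84 ± 0.26 against naive cells (1.78-fold lower, adjusted p = 0.0242). Against Th1 cells it was -0.88 ± 0.26, with an interval, not adjusted for the number of genes, of -1.47 to -0.29, and did not pass (adjusted p = 0.0538). The Th1 change against naive was 0.05, with an interval of -0.55 to 0.64 (adjusted p = 0.897).

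The spread of Dusp10 within Th1 and Th17 cells (SD of 0.43 and 0.41, n = 3 each) was larger than in naive cells (0.17, n = 3). The call against naive cells was lost without naive replicate 1 (-0.74, adjusted p = 0.075), without Th17 replicate 2, the lowest array (-0.61, adjusted p = 0.0752), and with the slide as a block (-0.30, adjusted p = 0.516). The difference from Th1 cells passed without Th17 replicate 3 (-1.06, adjusted p = 0.0407), and was -0.82 within slide 2 (adjusted p = 0.114) and with the block (adjusted p = 0.0552).

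Dusp16 was the 1 gene with a pair of probes. On the brighter probe naive cells stood at 1.91, 2.07 and 1.94, Th1 cells at 0.81, 0.67 and 0.65 and Th17 cells at 1.2, 0.77 and 0.81. All 3 naive arrays lay above all effector arrays, and the effector populations overlapped. Dusp16 was 2.41-fold lower in Th1 cells (log2 change -1.27 ± 0.13, adjusted p = 0.000103) and 2.06-fold lower in Th17 cells (log2 change -1.05 ± 0.13, adjusted p = 0.000269). The dimmer probe gave changes of -1.18 (adjusted p = 0.000122) and -1.02 (adjusted p = 0.000259) in a fit over all probes. The spread of the brighter probe was 0.09 (SD, n = 3) in naive and Th1 cells and 0.24 in Th17 cells.

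Both decreases of Dusp16 passed with each array left out, with the slide as a block (-1.17, adjusted p = 0.00432 for Th1 and -0.84, adjusted p = 0.048 for Th17 cells) and, for Th1 cells, within slide 1 (-1.17, adjusted p = 0.00942). Th17 and Th1 cells differed by 0.22 on the brighter probe, with an interval of -0.08 to 0.52 (adjusted p = 0.298), and by 0.16 on the dimmer one (adjusted p = 0.429).

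Dusp14 encodes a small atypical member of the family that lacks the MAP kinase binding domain of the others and is known as a negative regulator of antigen receptor signalling. It was at -1.69, -0.69 and -0.95 on the naive arrays, at 3.36, 3.47 and 3.41 on the Th1 arrays and at 1.62, 1.92 and 2.59 on the Th17 arrays. The 3 groups did not overlap, with Th1 cells highest and most alike (SD of 0.06, n = 3, against 0.52 in naive and 0.49 in Th17 cells). Dusp14 was 23-fold higher in Th1 than in naive cells (log2 change 4.53 ± 0.30, adjusted p = 9.44e-06) and 8.89-fold higher in Th17 than in naive cells (log2 change 3.15 ± 0.30, adjusted p = 5.83e-05). In Th1 cells 205 genes rose more than Dusp14, and in Th17 cells 430 did. With the slide as a block the changes were 4.47 (adjusted p = 0.000439) and 2.80 (adjusted p = 0.0096), and within slide 1 the Th1 change was 4.47 (adjusted p = 0.00589).

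Dusp14 was 2.59-fold lower in Th17 than in Th1 cells, a log2 change of -1.37 ± 0.30 with an interval of -2.06 to -0.69 (adjusted p = 0.017). It was the member with the largest difference between the effector populations by size, next to Dusp1 at -1.36. Within slide 2 the change was -1.67 (adjusted p = 0.012), the same with the slide as a block (adjusted p = 0.0242). Th17 replicate 3, alone on slide 3, was the Th17 array nearest to the Th1 arrays. The call was lost without Th1 replicate 2 (-1.35, adjusted p = 0.0572) or 3 (-1.38, adjusted p = 0.0507) and without Th17 replicate 1 (-1.17, adjusted p = 0.0528) or 2 (-1.31, adjusted p = 0.0529).

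**Figure D2:**
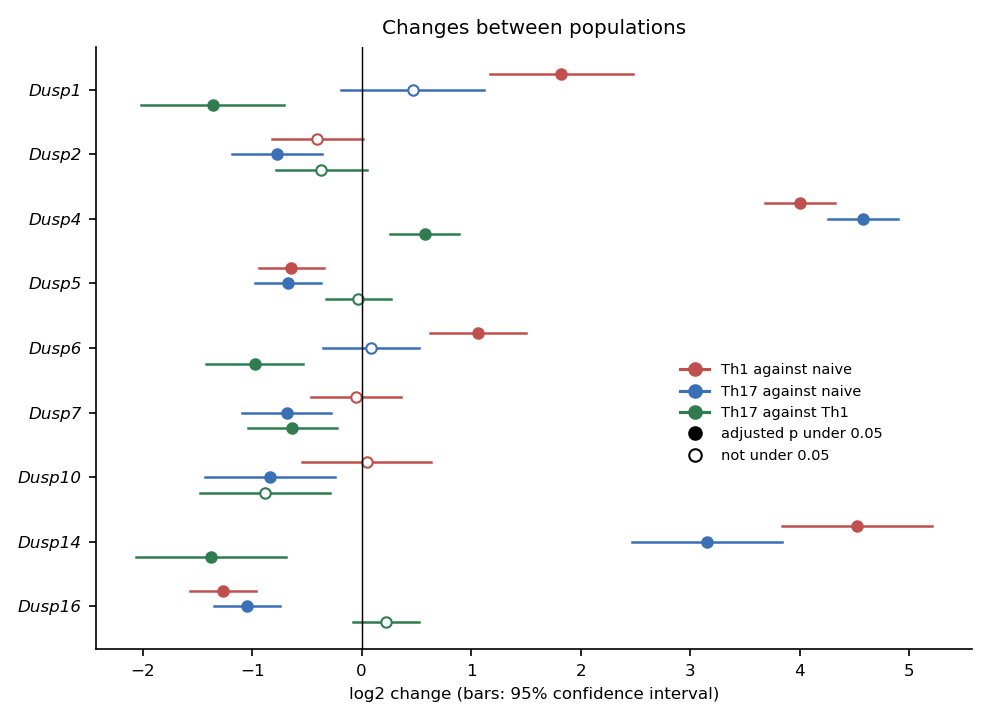
Log2 change of each gene in 3 comparisons (horizontal axis), with bars for the 95% confidence interval, which is not adjusted for the number of genes; filled points have an adjusted p under 0.05. Dusp4 and Dusp14 lie between 3.15 and 4.58 against naive cells. Dusp1, Dusp6, Dusp7 and Dusp14 are lower and Dusp4 higher in Th17 than in Th1 cells.

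Counted over the 9 genes, 4 were higher and 2 lower in Th1 than in naive cells. Among all genes tested, 23.5% were higher and 30.3% lower in that comparison. In Th17 against naive cells 2 were higher and 5 lower, against 24.1% and 30.1% of all genes. In Th17 against Th1 cells 1 was higher and 4 lower, against 8.04% and 7.69% of all genes. The 2 lower genes in Th1 cells and the 2 higher ones in Th17 cells are about what such shares give among 9 genes. So is the 1 higher one between effector populations. The remaining counts lie above their shares, and whether by more than counts among 9 genes vary was not tested. The median log2 change over the 9 genes was 0.05 in Th1 against naive cells, -0.67 in Th17 against naive and -0.63 in Th17 against Th1 cells, and over all genes tested it was -0.09, -0.09 and 0.00. With the slide as a block, the 9 genes gave 3 higher and 2 lower in Th17 against naive cells, where 14.1% and 13.2% of all genes passed, and 0 higher and 2 lower in Th17 against Th1 cells, where 5.79% and 5.22% passed. The genes were chosen with earlier results of these data known, so no test of these counts was made.

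**Figure D3:**
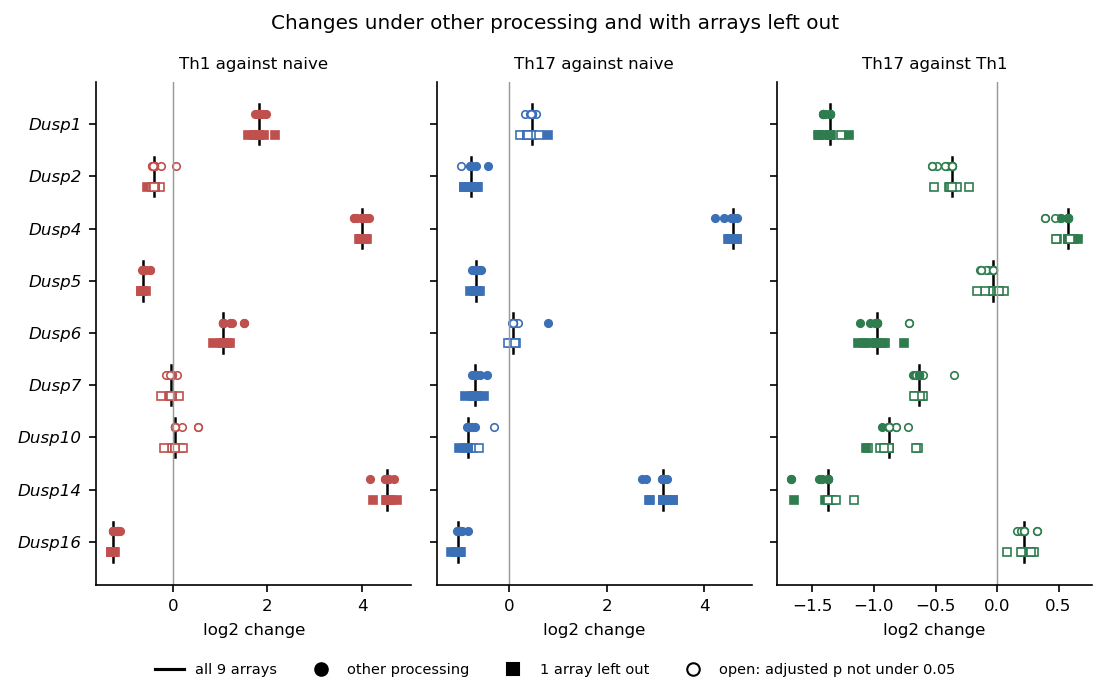
Log2 change of each gene (horizontal axis, with a scale of its own for each of the 3 comparisons) with all 9 arrays (line), under other processing (circles; the normexp fit that 1 spot pulled is left out) and with 1 array left out (squares). Open symbols did not pass. Dusp4, Dusp5, Dusp14 and Dusp16 against naive cells are filled throughout, whereas Dusp4 and Dusp7 between Th17 and Th1 cells hold filled and open symbols, over 0.39 to 0.66 for Dusp4 and -0.69 to -0.35 for Dusp7.

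The genes with the most similar pattern over the 9 arrays were sought among 11067 genes above background throughout, by the root mean square distance between levels centred on their own mean. For Dusp4 they were Ptger2, a prostaglandin E2 receptor (distance 0.24; mean level -1.61 in naive, 2.6 in Th1 and 2.82 in Th17 cells), and Mpzl2 (0.241). For Dusp14 they were Plagl1 (0.393; 3.03, 7.64 and 5.60) and Hivep3 (0.414). For Dusp1 they were Nsmaf (0.285) and Jarid2 (0.29; 2.11, 3.88 and 2.92), and for Dusp6 Baz1a (0.104; 3.45, 4.44 and 3.45) and the receptor gene Notch2 (0.138; 2.29, 3.42 and 2.56). Dusp5 was nearest to Surf6 (0.058) and Lemd3 (0.061), Dusp16 to Lrpap1 (0.078) and Ube2s (0.082), and Dusp2 to the mismatch repair gene Msh6 (0.081) and Rabep1 (0.1). Dusp7 was nearest to Tmed1 (0.099) and Cdc42ep4 (0.104), and Dusp10 to Gltp (0.173) and Zfp36l2 (0.174). Genes that vary little lie close to one another by this measure, so distances are not comparable between Dusp5 and Dusp14.

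Of 16 other dual-specificity phosphatases listed, 9 were measured. Against naive cells, 0 rose and 4 fell in Th1 cells (Dusp8, Dusp11, Dusp28, Styx), and 1 rose (Dusp3) and 4 fell in Th17 cells (Dusp8, Dusp22, Dusp28, Styx). Lower calls outnumbered higher ones over all genes as well, at 30.3% against 23.5% and 30.1% against 24.1%. Between Th17 and Th1 cells 1 was higher (Dusp3) and 0 were lower, against 8.04% and 7.69% of all genes. The count that rose in Th1 cells was 1 in some alternatives, among them without naive replicate 3 and without Th17 replicate 2. Dusp8, which like Dusp16 is directed at JNK and p38, had a mean of -1.35 in naive cells. It fell to -4.10 in Th1 (6.71-fold, adjusted p = 4.9e-05) and -3.87 in Th17 cells (5.75-fold, adjusted p = 6.97e-05). These effector levels lay near the lowest level of a probe above background, -5.53 to -4.82 on those arrays. Over 20 alternatives the log2 change of Dusp8 ranged from -2.94 to -1.60 in Th1 cells. Over 19 it ranged from -2.66 to -1.34 in Th17 cells, so both folds are rough. Dusp28 was 1.79-fold (adjusted p = 0.00515) and 2.13-fold lower (adjusted p = 0.00134). Dusp3, an atypical phosphatase of ERK and JNK, ran the other way from Dusp1 and Dusp14 between the effector populations: it was 3.26-fold higher in Th17 than in Th1 cells (adjusted p = 0.00918) and 2.28-fold higher than in naive cells (adjusted p = 0.0134), the latter lost with the slide as a block (adjusted p = 0.116). Dusp15, Dusp18, Dusp19, Dusp21, Dusp23, Dusp26 and Dusp27 were above background on too few arrays to be tested.

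Among 7 other measured phosphatases of MAP kinases, 1 rose and 3 fell in each effector population. With the slide as a block 1 rose and 1 fell. The gene that rose in each was Ptpn5. Of all genes tested, 23.5% rose and 30.3% fell in Th1 and 24.1% and 30.1% in Th17 cells. With the block these shares were 19.7% and 21.6%, and 14.1% and 13.2%. Ptpn5, a tyrosine phosphatase of ERK and p38, was above background on no naive array and on all effector arrays. It thus passed the filter on dim probes only through the effector arrays, and no p-value is given for its difference from naive cells. Its place in the counts of genes that rose rests on that filter. Where only probes above background on all 9 arrays were tested, 0 of these phosphatases rose and 3 fell in each effector population. The lowest signal of a probe above background on the naive arrays served as reference. Against it Ptpn5 was 211-fold higher in Th1 and 35.6-fold higher in Th17 cells. Its own naive signal was not measured, so these folds are rough. Like Dusp14, it was lower in Th17 than in Th1 cells (5.92-fold, adjusted p = 0.000159). Ppm1d was 1.97-fold and 1.74-fold lower than in naive cells (adjusted p = 0.000727 and 0.00205). Ppp2ca, the catalytic subunit of protein phosphatase 2A, was 1.48-fold and 1.42-fold lower (adjusted p = 0.00322 and 0.00562), calls lost with the slide as a block. The Sprouty and Spred inhibitors act upstream of ERK on Ras and Raf. Of 4 measured, 2 (Spry1 and Spred1) rose in both populations and 0 fell. In Th17 cells 1 fell without Th17 replicate 1 and in the fit with the replicate number as a block. Spry1 was 4.54-fold higher in Th1 (adjusted p = 0.000296) and 2.78-fold higher in Th17 cells (adjusted p = 0.00217), and Spred1 2.23-fold and 2.5-fold higher (adjusted p = 0.000175 and 7.69e-05).

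Of the kinases these phosphatases act on, 9 MAP kinase genes were measured. In Th1 cells 2 rose and 4 fell, in Th17 cells 0 rose and 3 fell. The counts in this paragraph stand beside the shares of all genes tested, which are not given for fits with 1 array left out. These were 23.5% higher and 30.3% lower in Th1 and 24.1% and 30.1% in Th17 cells. With the slide as a block they were 19.7% and 21.6%, and 14.1% and 13.2%. The 4 MAP kinases that fell in Th1 cells were 2 in some alternatives. Among these were the fits without naive replicate 2, without naive replicate 3 and with the slide as a block. In Th17 cells 0 to 2 rose over the alternatives, with 1 for instance without Th17 replicate 1. Mapk14, the main p38 kinase, fell 3.38-fold in Th1 (adjusted p = 4.31e-05) and 2.06-fold in Th17 cells (adjusted p = 0.000652), whereas Mapk11, another p38 kinase, was 2.39-fold higher in Th1 cells (adjusted p = 0.00115). Mapk7 (ERK5) fell 2.02-fold and 2.19-fold (adjusted p = 5.5e-05 and 2.72e-05). Of 6 MAP kinase kinases 1 rose (Map2k5) and 3 fell in both populations. The rise of Map2k5 was lost with the slide as a block in both, where 0 rose and 2 fell. In Th1 cells, at 0.60 (adjusted p = 0.0295), it was lost in 8 of 20 alternatives, among them within slide 1 and on leaving out array 2 or array 3 of either group, and the change ranged from 0.30 to 0.75 over the 20 (adjusted p up to 0.399). Among those that fell were Map2k1, by 2.14-fold and 2-fold (adjusted p = 0.000171 and 0.000261) and Map2k2, by 1.69-fold and 1.37-fold (adjusted p = 0.00022 and 0.00286). Of 12 kinases above them, 4 rose and 4 fell in Th1 cells and 3 rose and 4 fell in Th17 cells. With the slide as a block these were 3 and 4 in Th1 cells and 3 and 2 in Th17 cells. Map3k3 fell 4.75-fold and 4.76-fold (adjusted p = 1.33e-05 and 1.24e-05), Map3k5 rose 3.5-fold and 2.9-fold (adjusted p = 0.000174 and 0.000392) and Araf rose 1.96-fold and 2.32-fold (adjusted p = 0.000586 and 0.000165).

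On the input side, 17 genes for Ras regulators and protein kinase C were measured. Of these, 5 rose and 5 fell in Th1 cells and 2 rose and 6 fell in Th17 cells. In the fit with slides as a block 3 rose and 3 fell in each. The shares of all genes tested were 23.5% higher and 30.3% lower in Th1 and 24.1% and 30.1% in Th17 cells. With the block they were 19.7% and 21.6%, and 14.1% and 13.2%. Prkca, the alpha isoform of protein kinase C, was 14.2-fold higher in Th1 (adjusted p = 5.33e-07) and 3.81-fold higher in Th17 than in naive cells (adjusted p = 1.63e-05). Rasgrp2 fell 11.2-fold and 10.3-fold (adjusted p = 2.29e-05 and 2.5e-05), and Rasa2 1.85-fold and 1.83-fold (adjusted p = 9.63e-05 and 9.83e-05). Of 7 scaffold and adaptor genes, 1 rose and 2 fell in Th1 cells and 0 rose and 4 fell in Th17 cells, Mapk8ip1 by 1.72-fold and 2.44-fold (adjusted p = 0.00194 and 0.000134). The count that rose was 0 or 1 in either population over the alternatives. Examples are 0 in Th1 cells without naive replicate 3 and 1 in Th17 cells without Th17 replicate 1.

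On the output side, the counts stand beside the shares of all genes tested, which are not given for fits with 1 array left out. These were 23.5% higher and 30.3% lower in Th1 and 24.1% and 30.1% in Th17 cells. With the slide as a block they were 19.7% and 21.6%, and 14.1% and 13.2%. The 20 genes of ERK-driven transcription gave 4 higher and 4 lower in Th1 and 4 higher and 8 lower in Th17 cells. The 8 were 5 without naive replicate 2 and with the slide as a block, and the 4 lower in Th1 cells were 2 with the block. Between the effector populations 1 was higher in Th17 cells (Jun) and 4 were lower (Egr1, Egr3, Fosb, Fosl2). Of all genes 8.04% were higher and 7.69% lower there. With the slide as a block and within slide 2 the counts were 2 and 2, and without Th17 replicate 3 they were 2 and 3. Of all genes 5.79% were higher and 5.22% lower with the block, and 3.67% and 3.7% within slide 2. Fosb stood at a mean of 3.33 in naive, 3.29 in Th1 and 1.23 in Th17 cells. It was 4.17-fold lower in Th17 than in Th1 cells (adjusted p = 0.00014), and thus was lowest in Th17 cells like Dusp2, Dusp7 and Dusp10. Elk3 was 11.2-fold and 12.4-fold higher than in naive cells (adjusted p = 1.22e-07 and 1.84e-07), with means of 0.24, 3.72 and 3.88 in naive, Th1 and Th17 cells. Fosl1 was 4.15-fold and 3.67-fold lower (adjusted p = 2.02e-05 and 2.97e-05). Of 9 kinases activated by MAP kinases, 1 rose and 5 fell in Th1 and 2 rose and 5 fell in Th17 cells. In the fit with slides as a block 1 rose and 3 fell in each. Mknk2 was 2.51-fold and 4.75-fold lower (adjusted p = 3.4e-05 and 2.34e-06), Rps6ka5 was 2.86-fold lower in both (adjusted p = 0.000146 and 0.000136) and Mapkapk2 was 1.89-fold and 2.5-fold higher (adjusted p = 0.000322 and 4.05e-05). Rps6ka5 was dim, with a mean of -3.65 in both effector populations. Its log2 change ranged from -1.67 to -0.85 in Th1 cells over 20 alternatives and from -1.74 to -0.74 in Th17 cells over 19.

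**Figure D4:**
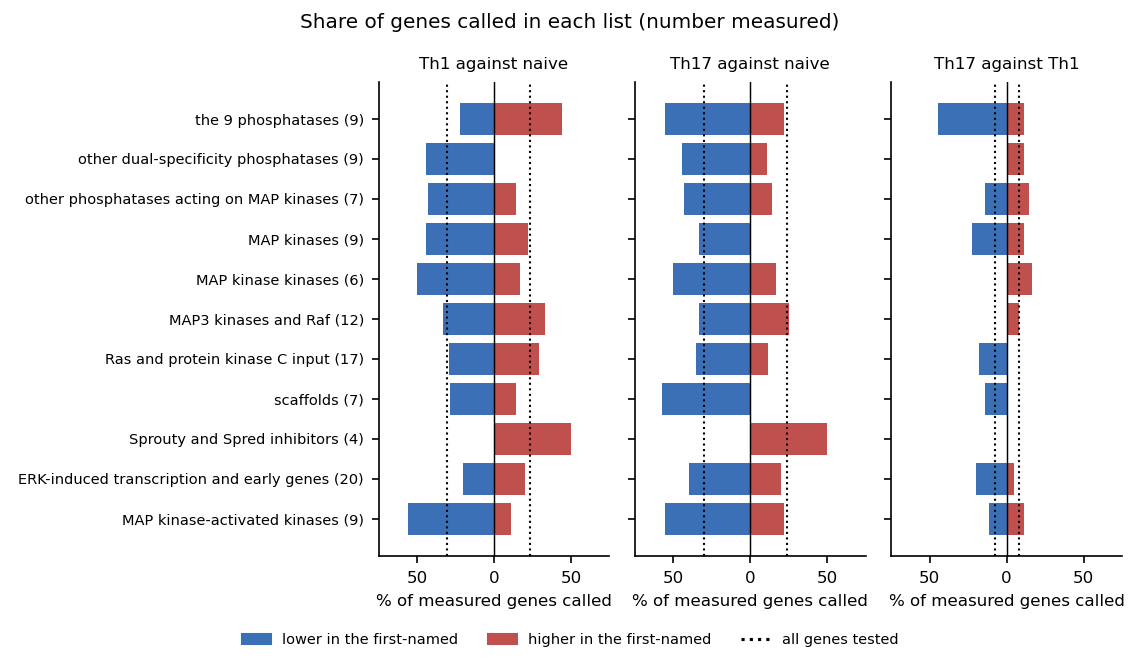
Percent of measured genes called higher (red) and lower (blue) in each pathway list and among the 9 phosphatases, in 3 comparisons, with the number measured in brackets; dotted lines are the shares over all genes tested. The 9 phosphatases have 4 higher and 2 lower genes in Th1 against naive, 2 and 5 in Th17 against naive and 1 and 4 in Th17 against Th1 cells, and the 9 other dual-specificity phosphatases 0 and 4, 1 and 4, and 1 and 0. Ptpn5, counted as higher against naive cells among the other phosphatases acting on MAP kinases, was above background on no naive array. The difference between lists was not tested.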

How the data were processed

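Cy3-labelled RNA (0.5 µg per sample) was hybridised to 1-colour Agilent mouse arrays. The deposited array files hold intensity per spot on a linear scale, background-subtracted and detrended by Feature Extraction 10.7.3.1 per the file headers (10.5 per the submitters' processing notes). The authors' deposited table holds log2 values that matched the intensities shifted to each array's 75th percentile less 1 constant for each probe (its baseline is unknown), and served as an alternative. Gene symbols came from RefSeq accessions (27234 of 39429 probes). The header's genome build differs from that of the annotation, so the only coordinates given are those of the promoters.

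Control spots and outlier spots were left out, and log2 intensity was shifted to the 75th percentile. Spots of a probe were averaged, probes well above background on at least 3 of 9 arrays were kept (23215), and the brightest probe stood for a gene (19071 genes). Between 53.4% and 58.3% of probes were above background on an array, and the number of arrays limits the precision. One limma model (version 3.58.1, R 4.3.3) held all 3 groups, and p-values are two-sided, Benjamini-Hochberg adjusted over all genes tested, in the model fitted with limma. The script was tested on simulated data.

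The 9 genes and the pathway and marker lists were chosen with earlier results of these data known. From each pathway list, up to 3 called genes with the smallest p were named, besides genes making up small counts, chosen after their values were seen. Some listed genes are not reported here by name. Arrays were not treated as paired. Alternatives covered background correction, scaling, filters, probes, slide, replicate number, the groups fitted, the authors' table and each array left out. A normexp fit without outlier spots was added after seeing the data.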

Additional observations from a re-analysis of the deposited data

How the results depend on the processing

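The 3 arrays per group limit what differences can be called. No called change of a member took the opposite sign under any alternative. Over all members, comparisons and alternatives, 502 values kept their side of the threshold, 49 lost a call and 7 gained one. The planned normexp background correction gave 2 higher and 1 lower in Th1 against naive cells and 0 lower in Th17 against naive cells. In Th17 against Th1 cells it gave 0 higher and 0 lower. Calls fell over all genes as well. In Th1 against naive cells 706 of 19071 genes were higher and 548 lower, in place of 4486 and 5785. On Th1 replicate 2 a spot with a background-subtracted signal of -168448.5 set the background mean of that fit to -2090, against -20.7 without outlier spots. The refitted correction changed 1 call, that of Dusp7 between Th17 and Th1 cells (-0.35, adjusted p = 0.182). With the slide as a block 2 were lower in Th17 against naive cells, and 0 higher and 2 lower in Th17 against Th1 cells. Within slide 2 these were 0 and 2, where 3.67% and 3.7% of all genes passed. The count of 1 higher in Th17 against Th1 cells was 0 with quantile normalization, with no filter on dim probes and with only the 2 groups fitted. With 1 array left out, the count in Th17 against Th1 cells was 0 to 1 higher and 1 to 4 lower.

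A fit with the replicate number as a block (replicate block) left the counts at 4 and 2, 2 and 5, and 1 and 4, with Dusp7 lost (adjusted p = 0.0581) and Dusp10 gained (adjusted p = 0.0471) in Th17 against Th1 cells. The labels do not say that a number marks a shared animal or day, and residuals correlated at -0.007 to 0.175 between same-numbered arrays of different groups and at -0.197 to 0.065 between the others. When the 75th percentile was taken over the probes detected on every array, the all-gene median in Th1 against naive cells went from -0.09 to 0.06. Higher genes then made up 55.2% of calls in place of 43.7%, and 41.6% in place of 51.1% in Th17 against Th1 cells. Under it Dusp10 in Th17 against Th1 cells passed (-0.94, adjusted p = 0.0346), as it did when only probes detected on all 9 arrays were tested (adjusted p = 0.0363).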
